A study of Mus musculus with 16 samples.

Results

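The HoxB cluster holds 10 of the 53379 genes counted in each library: Hoxb1, Hoxb2, Hoxb3, Hoxb4, Hoxb5, Hoxb6, Hoxb7, Hoxb8, Hoxb9 and Hoxb13. They were chosen by gene symbol. Hox genes encode homeodomain transcription factors that give cells of the embryo their position along the head-to-tail axis. Genes at one end of a cluster (low paralog numbers) are used in the hindbrain and those toward the other end (high paralog numbers) progressively further back, while the forebrain, from which the neocortex forms, keeps all of them silent. Polycomb repressive complex 2 (PRC2), of which Eed is a core subunit, places a repressive histone methylation mark, and Hox clusters are among its best known targets.

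The libraries were made from green fluorescent cells sorted from mouse neocortex at postnatal day 4, in the MADM (mosaic analysis with double markers) system on chromosome 7. Emx1-Cre drove recombination in the cortical lineage, and a lacZ transgene under the human GFAP promoter was used to gate astrocytes (GFP+/lacZ+), with the GFP+/lacZ- cells taken as neurons. Green cells were Eed+/+ in control-MADM mice and Eed-/- in mosaic Eed-MADM mice, in which a floxed Eed allele was lost from sparse cells of a mostly Eed+/- animal. The groups were Eed+/+ neurons (n = 2), Eed-/- neurons (n = 3), Eed+/+ astrocytes (n = 5) and Eed-/- astrocytes (n = 5), and 1 further library, whose labels name both cell types, was kept out of every comparison. All green cells carried 2 paternal copies of chromosome 7, whatever their Eed genotype. The labels give the strain as CD1, the methods a mixed C57BL/6 and CD1 background, with males and females not separated. The labels state that each astrocyte replicate came from 1 animal. How many cells went into each library is not stated in those sources. The HoxB genes lie on chromosome 11, not on the recombined chromosome.

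Between 211736 and 3178529 reads were assigned to genes per library, so that 1 read stood for very different levels. A library was taken to be within alignment limits when it had at least 1000000 uniquely aligned reads making up at least 60% of its reads, and 10 of the 15 did. Eed-/- astrocyte replicates 1, 3 and 4, Eed+/+ astrocyte replicate 3 and Eed+/+ neuron replicate 2 lay outside. Marker genes separated the sort labels only in part. In the libraries labelled neurons, 12 astrocyte markers summed to between 9707 and 23047 counts per 1000000 gene reads (CPM) and 12 neuron markers to between 1251 and 2921 CPM, against 3475 to 34405 CPM and 5.22 to 4410 CPM in the libraries labelled astrocytes. The ranges overlapped for both lists. Within the alignment limits the astrocyte markers did not overlap, at 9707 to 14206 CPM in 4 libraries labelled neurons and 15578 to 34405 CPM in 6 labelled astrocytes, while the neuron markers did, at 1746 to 2921 CPM and 255 to 2974 CPM. The names "neurons" and "astrocytes" therefore stand for the gates. Eed itself, counted over the whole gene because the deleted part could not be read apart from the rest, had a level of 73.2 ± 12.2 in Eed+/+ and 29.1 ± 11.3 in Eed-/- neurons, and of 38.5 ± 26.2 in Eed+/+ and 6.25 ± 8.63 in Eed-/- astrocytes (CPM scaled by TMM factors, mean ± SD), with 0 reads in Eed-/- astrocyte replicates 1, 3 and 4 and 26 and 14 reads in replicates 2 and 5. The library labelled Eed+/+ astrocyte replicate 3 had 2 Eed reads (4.19 CPM unscaled), below the 14.1 CPM of Eed-/- astrocyte replicate 5. Neither difference passed (edgeR quasi-likelihood test, adjusted p = 0.694 and 1).

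The 10 genes span 173.9 kb of chromosome 11 (GRCm38) and all lie on the plus strand, in the order Hoxb13, Hoxb9, Hoxb8, Hoxb7, Hoxb6, Hoxb5, Hoxb4, Hoxb3, Hoxb2 and Hoxb1. Hoxb13 (chr11:96194316-96197447) stands apart, 74.0 kb from Hoxb9 (chr11:96271457-96276595). Hoxb8 lies at chr11:96281905-96285315, Hoxb7 at chr11:96286623-96290162, Hoxb6 at chr11:96292476-96301569 and Hoxb5 at chr11:96303336-96306121. Hoxb4 lies at chr11:96318267-96321638, Hoxb3 at chr11:96323326-96347930, Hoxb2 at chr11:96350525-96354012 and Hoxb1 at chr11:96365752-96368256. Antisense genes overlap 4 of the 10: Hoxb5os overlaps Hoxb5 and Hoxb6, Hoxb3os overlaps Hoxb3 and Hoxb2, and Gm11536 also overlaps Hoxb3.

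Promoter sequence was at hand for 3 of the 10 genes (RefSeq, GRCm38.p6, plus strand), and the 250 bases before each start are shown because CpG-rich promoters are the usual sites of PRC2. Capitals mark each CG. The windows are chr11:96281655-96281904 for Hoxb8, chr11:96318017-96318266 for Hoxb4 and chr11:96365508-96365757 for Hoxb1.
Hoxb8: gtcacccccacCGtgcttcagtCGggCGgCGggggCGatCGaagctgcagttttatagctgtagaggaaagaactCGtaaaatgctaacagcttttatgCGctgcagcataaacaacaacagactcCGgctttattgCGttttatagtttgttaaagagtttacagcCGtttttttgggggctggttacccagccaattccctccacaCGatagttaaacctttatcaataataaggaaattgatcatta
Hoxb4: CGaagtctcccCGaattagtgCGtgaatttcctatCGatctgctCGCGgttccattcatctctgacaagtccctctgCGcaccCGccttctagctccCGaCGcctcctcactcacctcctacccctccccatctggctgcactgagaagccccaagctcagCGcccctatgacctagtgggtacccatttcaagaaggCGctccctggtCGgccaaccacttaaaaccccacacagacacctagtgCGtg
Hoxb1: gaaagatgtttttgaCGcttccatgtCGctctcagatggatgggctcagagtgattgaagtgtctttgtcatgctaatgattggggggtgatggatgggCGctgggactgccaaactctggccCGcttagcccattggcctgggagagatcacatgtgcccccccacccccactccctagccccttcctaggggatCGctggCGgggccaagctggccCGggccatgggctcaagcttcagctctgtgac
The Hoxb4 window held 14 CpG sites, that of Hoxb8 12 and that of Hoxb1 7, against a median of 6 over 32851 promoter windows of that length. Of those windows, 70.6%, 66.5% and 53.7% held fewer CpG sites than Hoxb4, Hoxb8 and Hoxb1, in that order. The letters TATAAA, on either strand, were found in the Hoxb8 window alone of the 3 and in 12.4% of all windows. CCAAT, on either strand, was found in the Hoxb8 and Hoxb1 windows and in 33.8% of all.

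All 10 proteins share the homeodomain, and reads from so similar a stretch could in principle be given to the wrong gene. Over the whole homeobox of 180 bases, identity between members ran from 50.6% (Hoxb5 and Hoxb13) to 88.9% (Hoxb6 and Hoxb7). The longest run of bases that any transcript of a member shared exactly with another Hox gene was 52 bases for Hoxb4, 50 for Hoxb9, 47 for Hoxb3 and 37 for Hoxb6 and Hoxb7. It was 32 bases for Hoxb8 and 17 for Hoxb13. Only uniquely aligned reads were counted. The read length is not stated.

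To ask whether HoxB genes were read in Eed-/- cells of the cortex, the reads of each gene were set out for every library. In neurons the answer was the same for nearly the whole cluster. The Eed+/+ neuron libraries together held 0 reads over the 10 genes in 2130476 gene reads, which for each gene allows a level of up to 1.41 CPM (3 counts over the group). Most of these gene reads, 1786836, came from Eed+/+ replicate 1. In Eed+/+ replicate 2 alone, 3 counts stand for 8.73 CPM. That is above the mean Eed-/- neuron levels of Hoxb2, Hoxb3, Hoxb4, Hoxb5 and Hoxb9 and close to those of Hoxb6 and Hoxb7. The Eed-/- neuron libraries held 159, 205 and 109 HoxB reads (replicates 1 to 3) in 4933703 gene reads, from 8, 9 and 8 of the genes. In astrocytes, 2 of the 5 Eed-/- libraries (replicates 2 and 5) carried 227 of the 231 HoxB reads, and the 5 Eed+/+ libraries held 7.

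**Figure D1:**
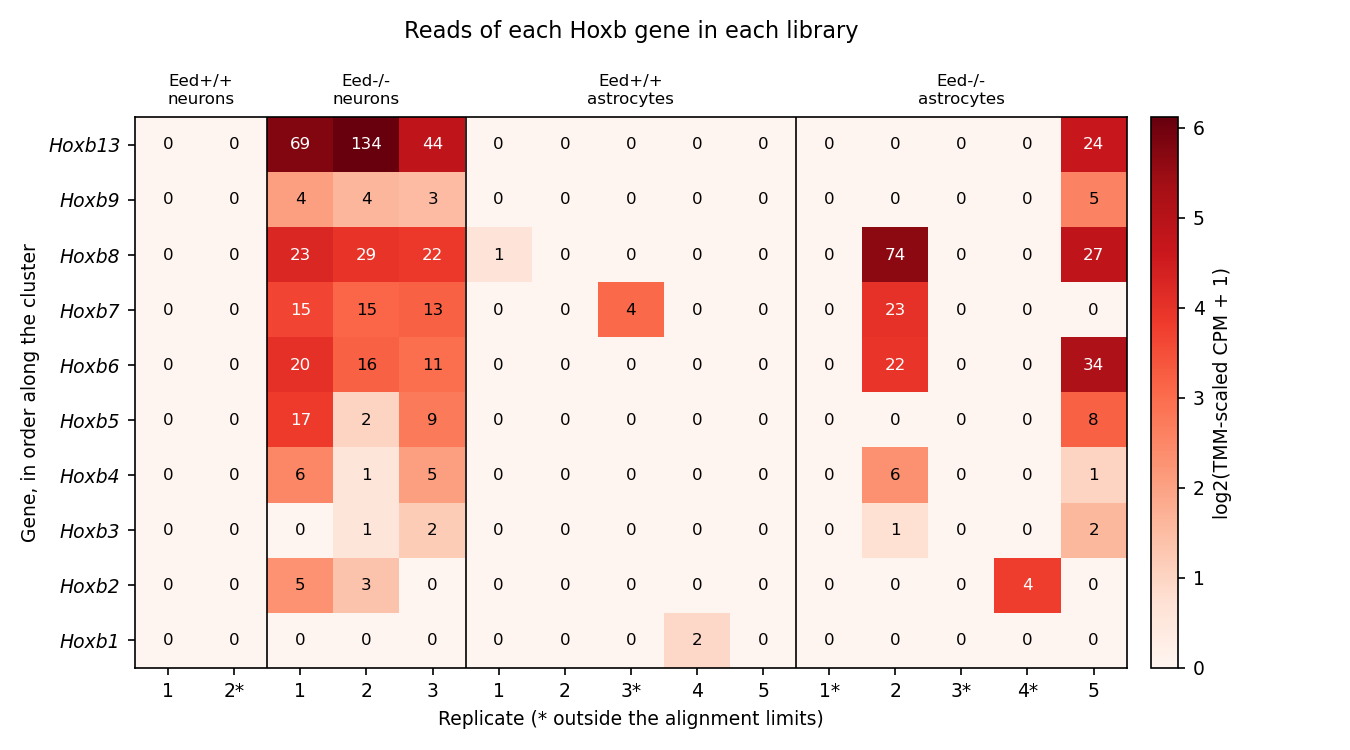
Reads of each HoxB gene (rows, in order along the cluster) in each of the 15 libraries (columns, by replicate number), with colour giving log2(TMM-scaled CPM + 1) and stars marking libraries outside the alignment limits. The 3 Eed-/- neuron libraries hold reads of 8 or 9 genes, and Eed-/- astrocyte replicates 2 and 5 of 5 and 7 genes, while both Eed+/+ neuron columns hold 0 throughout.

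Hoxb13, the last gene of the cluster and one normally used in the tail bud and hindgut region, led in neurons. It had 0 reads in both Eed+/+ neuron libraries and 69, 134 and 44 reads in Eed-/- replicates 1 to 3. Every Eed-/- library thus lay above both Eed+/+ libraries. The TMM-scaled level in Eed-/- neurons was 49.9 ± 20.7 CPM (SD, n = 3). The pooled level, reads over gene reads of the group without TMM scaling, was 50.1 CPM, at least 35.6-fold higher than the level that 3 counts over the Eed+/+ group would give. With genes of low count filtered out, its log2 fold change was 9.12 ± 1.71 (SE), with an unadjusted p of 0.000163 and an adjusted p of 0.641 (edgeR quasi-likelihood test, Benjamini-Hochberg over 11862 genes). Without the filter the same test gave an adjusted p of 0.000931 over 23689 genes, which rose to 0.130 without Eed-/- replicate 1 and to 0.123 without replicate 2, and DESeq2 on the filtered genes gave 0.00471. Over 13 distinct filtered fits the adjusted p ran from 0.00471 to 1, and it passed 0.05 in 3 of them, 1 of which had a single Eed+/+ library. Over 10 distinct fits without the filter it ran from 0.000406 to 1 and passed in 7, of which 2 had a single Eed+/+ library, whose spread is then taken from the other group. A fitted fold against a group with no read depends on the prior count, and whether Hoxb13 passed depended on the filter and on the tool.

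Hoxb8, Hoxb7 and Hoxb6, neighbours in the middle of the cluster that pattern the trunk, followed. Hoxb8 had 23, 29 and 22 reads in Eed-/- neuron replicates 1 to 3, Hoxb7 had 15, 15 and 13, and Hoxb6 had 20, 16 and 11. All 9 values exceeded the 0 reads of both Eed+/+ libraries. In Eed+/+ replicate 2, however, 3 counts stand for 8.73 CPM, above the unscaled levels of Hoxb7 and Hoxb6 in Eed-/- replicates 2 and 3. Hoxb8 reached 15.5 ± 2.14 CPM, Hoxb6 10.2 ± 4.68 CPM and Hoxb7 9.17 ± 2.19 CPM (TMM-scaled). Their pooled levels were, in that order, at least 10.7-fold, 6.77-fold and 6.19-fold above the Eed+/+ floor. With the filter, the adjusted p was 0.644 for each (edgeR quasi-likelihood test), and without it 0.128 for Hoxb8, 0.299 for Hoxb6 and 0.362 for Hoxb7. None of the 3 passed 0.05 under any setting run, where the lowest adjusted p was 0.0809 for Hoxb8, 0.176 for Hoxb6 and 0.200 for Hoxb7.

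Hoxb5, Hoxb9 and Hoxb4 were lower and still present in every Eed-/- neuron library. Hoxb5 had 17, 2 and 9 reads, Hoxb4 had 6, 1 and 5, and Hoxb9 had 4, 4 and 3, against 0 in both Eed+/+ libraries. Hoxb5 was uneven, with replicate 1 high and replicate 2 near the limit of detection. Their levels were 6.64 ± 6.17 CPM for Hoxb5, 2.77 ± 2.11 CPM for Hoxb4 and 2.35 ± 0.67 CPM for Hoxb9, whose pooled level of 2.23 CPM was at least 1.58-fold above the Eed+/+ floor. In Eed+/+ replicate 2 alone, 3 counts stand for 8.73 CPM, above the mean levels of these genes, so that the floor rests on Eed+/+ replicate 1.

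The genes of the hindbrain end were at the edge of what these libraries could show. Hoxb2, which acts in the hindbrain, had 5, 3 and 0 reads in Eed-/- neurons. Hoxb3 had 0, 1 and 2, a level of 0.589 ± 0.632 CPM that lies under the Eed+/+ floor, so that no fold is given. Hoxb1, a gene of a single hindbrain segment, had no read in any neuron library, which allows up to 0.608 CPM in the Eed-/- group (3 counts).

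**Figure D2:**
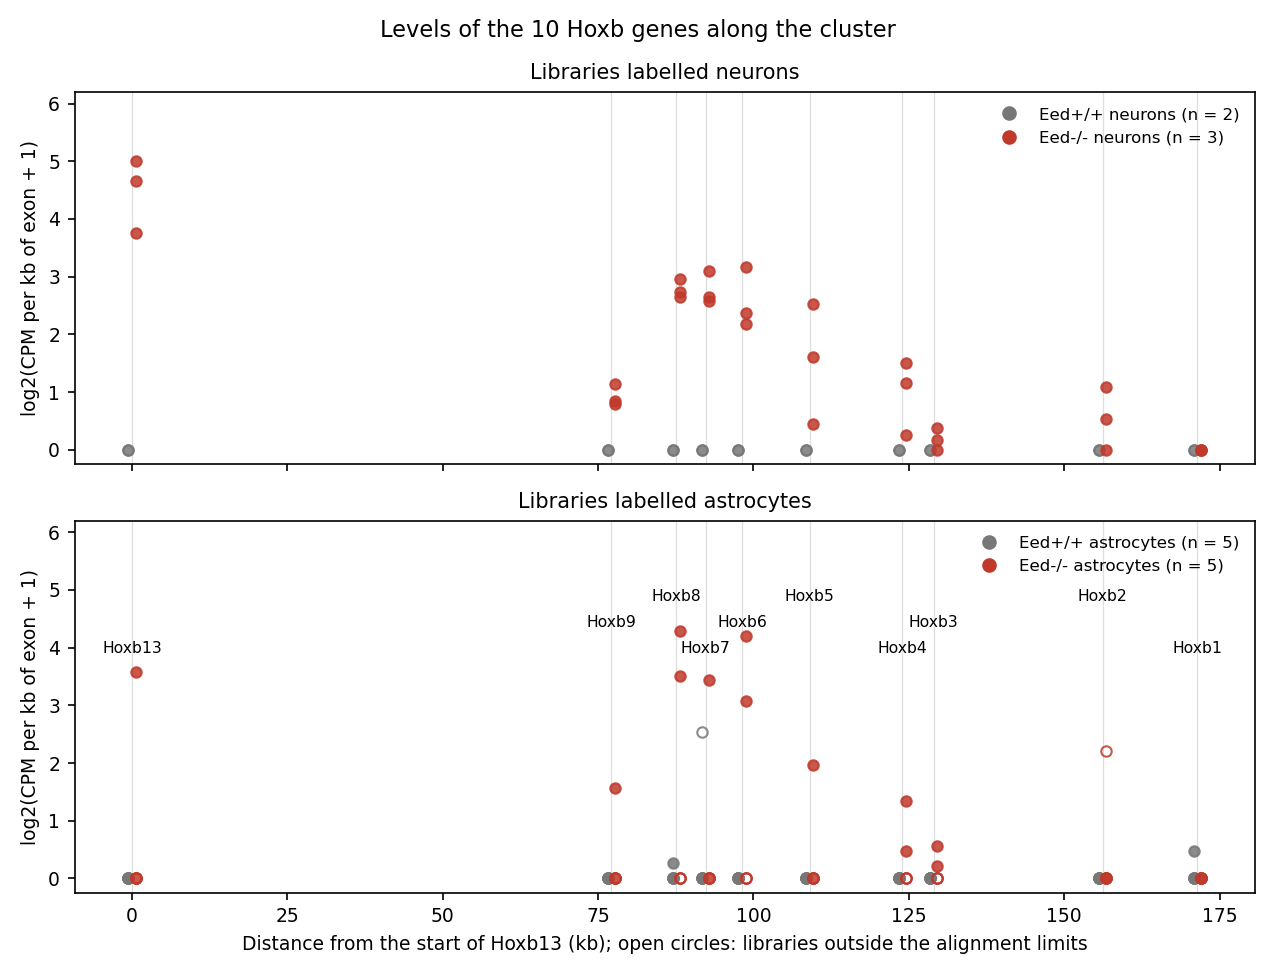
Level of each HoxB gene, as log2(TMM-scaled CPM per kb of exon + 1), against its distance from the start of Hoxb13 in kb, for the libraries labelled neurons (top) and astrocytes (bottom). Points are libraries, grey Eed+/+ and red Eed-/-, open where outside the alignment limits; in Eed-/- neurons Hoxb13 stood highest at 22.6 CPM per kb on average, Hoxb8 to Hoxb6 formed a shoulder between 5.20 and 5.94, and the points fell toward Hoxb1 at 0.

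Counted over the members, 9 of 10 had no read in either Eed+/+ neuron library and a read in at least 2 Eed-/- neuron libraries, a pattern held by 6.66% of the 23689 genes with a read in neurons. In 7 of 10 (Hoxb4 to Hoxb9 and Hoxb13) all Eed-/- neuron libraries lay above both Eed+/+ libraries, as did 11.1% of those genes. For Hoxb4, Hoxb5 and Hoxb9 the 0 of Eed+/+ replicate 2 carries little weight, because 3 counts there stand for 8.73 CPM. The median member was 4.71 CPM higher in Eed-/- neurons, against a median of 0.311 CPM over all genes. By the test across genes, 4 members passed the filter on low counts and 0 of the 4 were called at an adjusted p of 0.05 (edgeR quasi-likelihood test), where 0% of the 11862 genes tested were. The 4 had unadjusted p under 0.05, as had 862 of all genes tested, DESeq2 called 1 of the 4, against 0.219% of the 11862 genes, and limma-voom called 0 of the 4 and 0 of all genes. Members could pass the filter only through the Eed-/- group. Without the filter 9 members were tested and 1 (Hoxb13) was called higher, against 0.0507% of 23689 genes. The Eed+/+ neuron group was 1 library within the limits and 1 outside, and leaving out Eed+/+ neuron replicate 1 raised the number of genes called from 0 to 2601.

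Per kb of exon, the order in Eed-/- neurons was Hoxb13 (22.6 ± 9.36 CPM per kb), Hoxb7 (5.94 ± 1.42), Hoxb8 (5.89 ± 0.811), Hoxb6 (5.20 ± 2.38), Hoxb5 (2.38 ± 2.21), Hoxb4 (1.08 ± 0.820), Hoxb9 (0.912 ± 0.260), Hoxb2 (0.519 ± 0.562), Hoxb3 (0.139 ± 0.149) and Hoxb1 (0). Hoxb13 lay above every other member in each of the 3 libraries. Further down the order, each pair of neighbours except Hoxb6 and Hoxb5 differed by less than the larger of their SDs. The level did not fall evenly along the cluster: Hoxb9, between Hoxb13 and Hoxb8, was lower than both in all 3 libraries. The 6 genes of paralog groups 5 to 13 held 95.1% of the HoxB reads of Eed-/- neurons and 93.9% of those of Eed-/- astrocytes, or 32.8 and 15.8 reads per kb, against 1.82 and 1.11 reads per kb for the 4 genes of groups 1 to 4. These shares leave out reads that also lie over an antisense gene, which fall mainly on groups 1 to 4. With such reads counted for the HoxB gene, as an upper limit, groups 1 to 4 went from 23 to 75 reads in neurons and from 14 to 30 in astrocytes, and the shares of groups 5 to 13 were 85.9% and 87.9%.

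In astrocytes the libraries of the Eed-/- group went separate ways. Summed over the 10 genes, the level was 0 in Eed-/- replicates 1 and 3, 12.7 CPM in replicate 4 (4 reads), 83.1 CPM in replicate 2 and 102 CPM in replicate 5. In Eed+/+ astrocytes it was 0 in replicates 2 and 5, 0.522 CPM in replicate 1, 0.917 CPM in replicate 4 and 7.44 CPM in the library labelled replicate 3, which had 2 Eed reads. Replicates 2 and 5 stood far above all other astrocyte libraries, and the groups overlapped. The Eed-/- mean was 39.5 ± 49.0 CPM (n = 5) and the Eed+/+ mean 1.78 ± 3.19 CPM (n = 5), a difference of 37.7 CPM (39.2 CPM without the library labelled Eed+/+ replicate 3) that was smaller than the SD of the Eed-/- group. Among libraries within the alignment limits, replicates 2 and 5 are the whole Eed-/- group, and the difference was 92.1 CPM. The library numbers fall into 2 consecutive runs, and within them the difference was 27.5 CPM (3 Eed-/- and 2 Eed+/+ libraries) and 54.4 CPM (2 and 3 libraries), while all neuron libraries belong to the first. In neurons the summed level was 124, 105 and 68.5 CPM in Eed-/- replicates 1 to 3, a mean of 99.0 ± 28.1 CPM, against 0 in both Eed+/+ libraries.

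**Figure D3:**
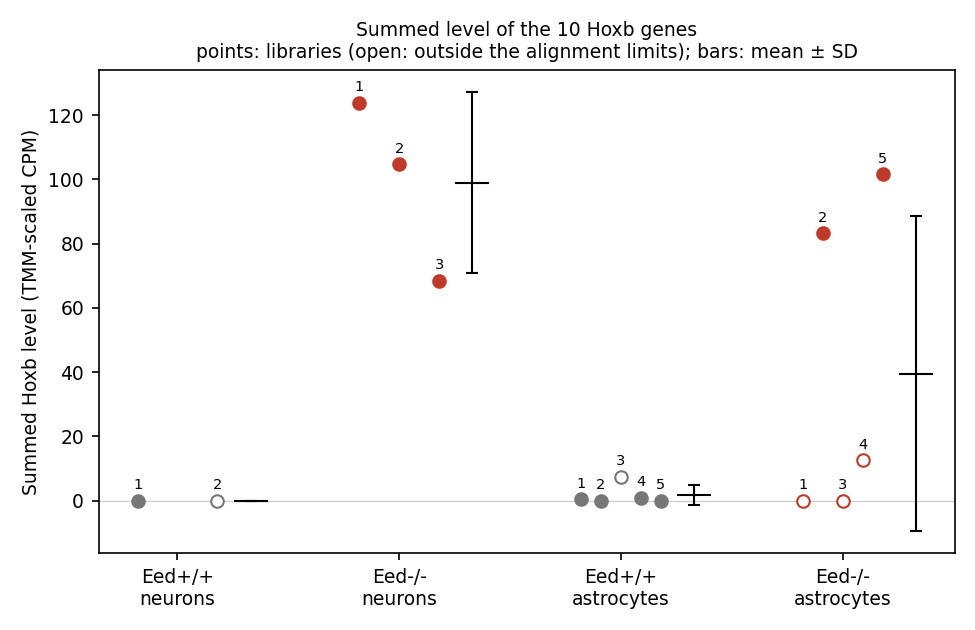
Summed level of the 10 HoxB genes (TMM-scaled CPM) in each library, by group, with the replicate number above each point, open points for libraries outside the alignment limits, and bars for the mean ± SD. Eed-/- astrocyte replicates 2 and 5 reach the range of the Eed-/- neurons (68.5 to 124 CPM), and the other 3 Eed-/- astrocyte libraries lie at or below 12.7 CPM.

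In Eed-/- astrocyte replicates 1 and 3, which held no HoxB read, 3 counts correspond to 7.83 and 7.44 CPM per gene, below the levels of Hoxb8 and Hoxb6 in replicates 2 and 5. In replicate 4 they correspond to 14.2 CPM, above the unscaled Hoxb6 level of replicate 2 (11.6 CPM). Replicates 1, 3 and 4 had reads of 4462, 7321 and 2959 genes, against 12357 and 14199 in replicates 2 and 5. The 3-count level covers only counting error, so a 0 in these libraries does not show that a gene was silent. Markers of other cells were also read in replicates 1 and 3: 10 microglia markers summed to 15781 CPM in replicate 1 and 2875 CPM in replicate 3, and 5 erythroid markers to 8829 and 52.0 CPM. In replicate 4 the microglia markers were at 0 and the erythroid markers at 11925 CPM. Replicates 2 and 5 had microglia markers at 36.5 and 16.1 CPM with 1 of 10 genes read, and erythroid markers at 0. They differed in other markers: astrocyte markers summed to 34259 CPM in replicate 2 and 15578 CPM in replicate 5, and neuron markers to 255 and 2974 CPM, where the Eed-/- neuron libraries had 9707 to 14206 and 1746 to 2921 CPM. In the Eed-/- neuron libraries, microglia markers lay between 17.9 and 164 CPM and erythroid markers between 0 and 5.34 CPM. Markers of the oligodendrocyte lineage (8 genes) summed to 3304 and 3825 CPM in Eed-/- astrocyte replicates 2 and 5. In replicates 1, 3 and 4 they summed to 209, 349 and 845 CPM. They lay at 2514 to 4020 CPM in Eed-/- neurons and at 1191 to 4784 CPM in Eed+/+ astrocytes. The part of microglia, erythroid or oligodendrocyte lineage cells, or of neurons, in the astrocyte result was not tested. In bulk libraries, fewer cells that use a gene and less RNA of it per cell cannot be told apart.

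Hoxb8 and Hoxb6 were the members read in both of the high Eed-/- astrocyte libraries at more than 20 reads. Hoxb8 had 74 reads in replicate 2 and 27 in replicate 5, 0 in the other 3 Eed-/- libraries, and 1 read over the 5 Eed+/+ libraries (replicate 1). Hoxb6 had 22 reads in replicate 2, 34 in replicate 5 and 0 in the other 8 astrocyte libraries. For both genes, replicates 2 and 5 were high and the other 3 Eed-/- libraries did not exceed the Eed+/+ libraries. The Hoxb6 level was 9.75 ± 15.1 CPM in Eed-/- astrocytes, and its pooled level was at least 47.0-fold above the Eed+/+ floor, or at least 24.8-fold without replicate 5. Hoxb8 reached 15.2 ± 22.2 CPM, and its pooled ratio of 254 rested on 1 Eed+/+ read, with a counting interval from 44.6 to 10147. Without replicate 2 the ratio was 133 (21.8 to 5427). Without the filter the log2 fold change was 6.65 ± 2.28 for Hoxb6 and 6.18 ± 2.33 for Hoxb8, with adjusted p of 0.296 and 0.386 (edgeR quasi-likelihood test). Over all settings run, the adjusted p fell no lower than 0.0807 for Hoxb6 and 0.116 for Hoxb8.

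Other members were read in 1 Eed-/- astrocyte library only, or nearly so. All 24 Hoxb13 reads, all 5 Hoxb9 reads and all 8 Hoxb5 reads came from replicate 5. All 23 Hoxb7 reads came from replicate 2, and Hoxb7 also had 4 reads in the library labelled Eed+/+ astrocyte replicate 3. Replicate 2, with more gene reads than replicate 5, thus held no Hoxb13, Hoxb9 or Hoxb5 read, and replicate 5 no Hoxb7 read. Hoxb4 had 6 reads in replicate 2 and 1 in replicate 5, and Hoxb3 had 1 and 2. The 4 Hoxb2 reads of the group were all in replicate 4, and the only Hoxb1 reads of any labelled library were 2 in Eed+/+ astrocyte replicate 4.

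Over the members, 3 of 10 (Hoxb6, Hoxb4 and Hoxb3) had no read in Eed+/+ astrocytes and a read in at least 2 Eed-/- astrocyte libraries, against 0.928% of the 24464 genes with a read in astrocytes. In 0 of 10 did all Eed-/- astrocyte libraries lie above all Eed+/+ libraries, as 0.0164% of genes did. The median member was 1.58 CPM higher in Eed-/- astrocytes, where the median over all genes was -0.418 CPM. No member (0 of 10) passed the filter, and 0% of the 8956 genes tested were called (edgeR quasi-likelihood test), with 108 at an unadjusted p under 0.05. DESeq2 called 1 of the 8956 genes (0.0112%) and limma-voom 0. Without the filter all 10 members were tested and 0 were called higher, against 0.0164% of 24464 genes, while 8 of the 10 had unadjusted p under 0.05 beside 2784 of all genes. With all 15 libraries in 1 fit, the adjusted p was 0.0868 for Hoxb6, 0.117 for Hoxb8 and 0.130 for Hoxb13. Relative to each other the libraries had shifted as a whole: the median log2 fold change of all genes tested was -0.54 in astrocytes and 0.15 in neurons.

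Whether the genotype difference itself differed between the gates was asked with an interaction term. Of 5 members tested, 0 were called, where 0.0524% of 13367 genes were, and the smallest of their unadjusted p-values was 0.138, for Hoxb7 (edgeR quasi-likelihood test). For Hoxb13, Hoxb6 and Hoxb5, with no Eed+/+ read in either gate, this contrast has no defined size, and none is given. Their unadjusted p-values were 0.9995 or above (edgeR quasi-likelihood test), so the lack of calls does not show that the gates were alike. Eed-/- neurons were therefore also compared with Eed-/- astrocytes directly. Of 5 members tested 0 were called, against 0.0598% of 13367 genes, and 0 had an unadjusted p under 0.05. Hoxb13 had 69, 134 and 44 reads in Eed-/- neurons and 0, 0, 0, 0 and 24 in Eed-/- astrocytes. Its level was higher in each of the 3 neuron libraries than in any astrocyte library, by 3.25 ± 1.72 (SE) on the log2 scale, with an unadjusted p of 0.0587 and an adjusted p of 0.764. Without Eed-/- astrocyte replicate 5, the only one with Hoxb13 reads, the fitted difference was 9.05 ± 2.59 with an adjusted p of 0.0622, a size that depends on the prior count because the astrocyte group is then at 0. With a replicate block it was 9.23 ± 3.10, with an adjusted p of 0.351. Within the alignment limits, which leave Eed-/- astrocyte replicates 2 and 5, the fitted difference was smaller, at 2.10. For Hoxb8 and Hoxb6 the Eed-/- ranges of the gates overlapped, at 13.8 to 17.9 CPM in neurons and 0 to 48.8 CPM in astrocytes for Hoxb8, and at 6.91 to 15.6 CPM and 0 to 34.2 CPM for Hoxb6.

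The other genes of the cluster shared the pattern in part. Between Hoxb13 and Hoxb1 lie 9 further annotated genes, of which 6 had a read and 2 had at least 10. Gm53, a long noncoding RNA gene between Hoxb13 and Hoxb9 (chr11:96251105-96264868), had 13, 13 and 1 reads in Eed-/- neuron replicates 1 to 3, 4 reads in Eed-/- astrocyte replicate 5 and 0 in the other 11 labelled libraries. Gm11539, a processed pseudogene (chr11:96248633-96249189), did not follow the genotype, with 5 reads in Eed+/+ neurons, 11 in Eed-/- neurons, 7 in Eed+/+ astrocytes and 2 in Eed-/- astrocytes. The miRNA genes Mir196a-1 and Mir10a, which lie in the cluster, had 0 reads, and poly(A) libraries do not measure mature miRNAs.

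Reads over a sense and an antisense gene were set aside in the unstranded counts, and this bore on the hindbrain end of the cluster. When the 2 stranded columns were added together, a read lying over a HoxB gene and an antisense gene was counted for both, once in each column. The gains of Hoxb3 and Hoxb2 together equalled the gain of Hoxb3os, the antisense gene that overlaps both, in all 15 libraries, and those of Hoxb5 and Hoxb6 equalled the gain of Hoxb5os. So counted, Hoxb3 went from 0, 1 and 2 to 6, 2 and 22 reads in Eed-/- neuron replicates 1 to 3, and from 2 to 16 in Eed-/- astrocyte replicate 5. Hoxb2 went from 5, 3 and 0 to 10, 14 and 9 reads in Eed-/- neurons, and Hoxb3os from 1, 0 and 2 to 12, 12 and 31. The larger counts are upper limits for each gene, because the libraries did not mark strand and the shared reads could come from the sense or the antisense transcript. Hoxb3, Hoxb2 and Hoxb3os held 0 reads in every Eed+/+ library under both ways of counting.

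**Figure D4:**
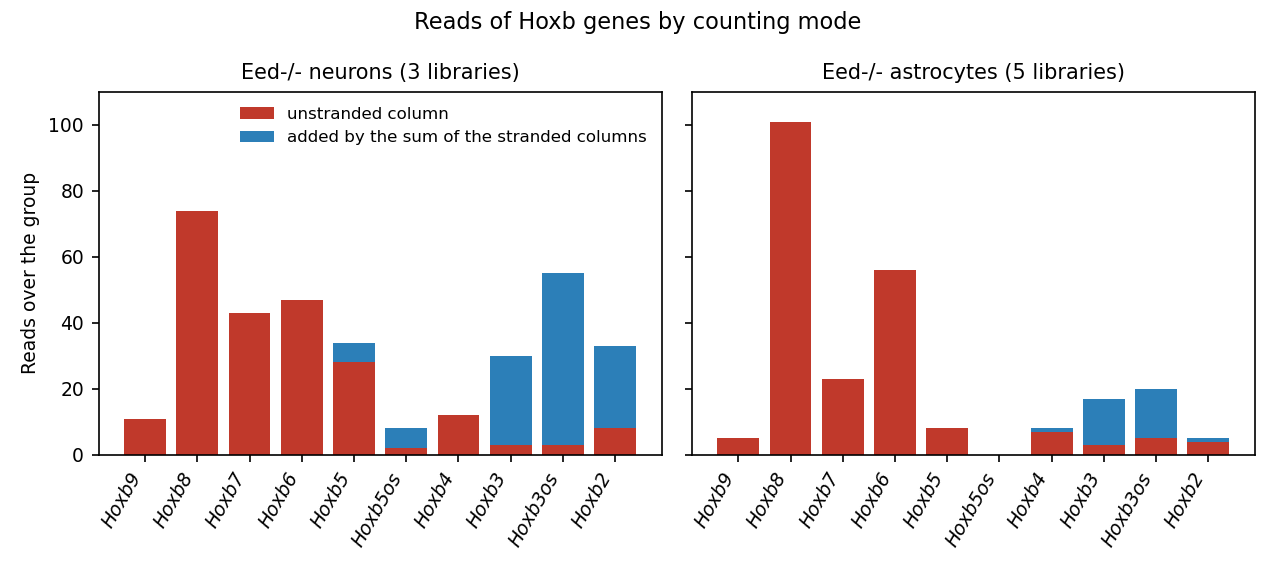
Reads summed over the 3 Eed-/- neuron libraries (left) and the 5 Eed-/- astrocyte libraries (right) for HoxB genes and 2 antisense genes, with the unstranded count in red and the reads gained by adding the stranded columns in blue. The same reads appear under a HoxB gene and its antisense gene: Hoxb3os gains 52 reads in neurons, which are the 27 of Hoxb3 and the 25 of Hoxb2, and Hoxb5os and Hoxb5 gain 6 each, while Hoxb6 to Hoxb9 gain 0.

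Of the genes that flank the cluster, most were read in both genotypes or hardly at all. On the Hoxb13 side, Ttll6 had 0 reads in Eed+/+ libraries, 1 in Eed-/- neuron replicate 3 and 6 in Eed-/- astrocyte replicate 5, and Calcoco2 had 0 reads in all. Atp5g1, which encodes a subunit of the mitochondrial ATP synthase, and Ube2z, a ubiquitin-conjugating enzyme, were read in all 4 groups. Ube2z was at 43.3 ± 34.6 CPM in Eed+/+ and 38.2 ± 4.39 CPM in Eed-/- neurons. On the Hoxb1 side, Skap1 had 1 read in all, and Snx11, Cbx1 and Nfe2l1 were read in all 4 groups, with Cbx1, a heterochromatin protein gene, at 201 ± 5.34 CPM in Eed+/+ and 232 ± 3.67 CPM in Eed-/- neurons. Of the 8 neighbours, 5 were tested in neurons and 5 in astrocytes, and 0 were called in either, nor had any an unadjusted p under 0.05 (edgeR quasi-likelihood test). Without the filter, Ttll6 had an unadjusted p of 0.0208 and an adjusted p of 0.391 in astrocytes.

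HoxB genes were next set beside their paralogs. In Eed-/- neurons the HoxA, HoxB, HoxC and HoxD clusters held 257, 473, 496 and 100 reads, from 9 of 11, 9 of 10, 9 of 9 and 8 of 9 genes. In Eed+/+ neurons the HoxA, HoxB and HoxD clusters held 0 reads and HoxC 4. In Eed-/- astrocytes they held 22, 231, 288 and 25 reads, and Eed+/+ astrocytes 2, 7, 1 and 0. Eed-/- astrocyte replicate 3, with no HoxB read, held 54 HoxC reads, all of 1 gene, and 12 HoxA reads. Within paralog group 13, Hoxb13 had 247 reads in Eed-/- neurons, Hoxc13 28, Hoxd13 10 and Hoxa13 2. In group 9 the order was turned, with 11 reads of Hoxb9 against 239 of Hoxc9, 48 of Hoxd9 and 23 of Hoxa9. In group 8, Hoxb8 and Hoxc8 had 74 and 68 reads in Eed-/- neurons and 101 and 99 in Eed-/- astrocytes, but in astrocytes they differed by library. Hoxb8 had 74 reads in replicate 2, 0 in replicate 3 and 27 in replicate 5, and Hoxc8 had 41, 54 and 4. In group 7, Hoxa7 had 103 reads in Eed-/- neurons and 0 in Eed-/- astrocytes, where Hoxb7 had 43 and 23. These are reads, not levels per length. Per kb of exon, the mean level in Eed-/- astrocytes was 5.77 CPM for Hoxb8 and 13.5 CPM for Hoxc8, but the Hoxc8 mean rested on replicate 3, outside the alignment limits, at 56.4 CPM per kb. Without replicate 3 the order turned, to 7.21 for Hoxb8 and 2.74 for Hoxc8.

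Hox proteins bind DNA with TALE homeodomain partners of the Pbx, Meis and Pknox families, and the partners were read in both genotypes. Of the 9 cofactor genes, 7 were tested in astrocytes and 9 in neurons, and 0 were called in either. At an unadjusted p under 0.05 there were 0 in astrocytes and 2 in neurons (edgeR quasi-likelihood test). Their median log2 fold change was -0.35 in astrocytes and -0.79 in neurons, against medians over all genes of -0.54 and 0.15. Meis2 was at 612 ± 189 CPM in Eed+/+ and 363 ± 143 CPM in Eed-/- neurons. Pbx3, at 80.7 ± 7.37 and 29.1 ± 3.19 CPM, was lower in all 3 Eed-/- than in both Eed+/+ neuron libraries but did not pass (log2 fold change -1.57 ± 0.657, adjusted p = 0.670, edgeR quasi-likelihood test).

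The factors that switch on HoxB genes in the embryo were mostly near 0. Cdx1, Cdx2 and Cdx4, which activate the trunk end of the clusters, had 1, 2 and 0 reads in Eed-/- neurons and 0 in Eed+/+ neurons. Cdx1 had 12 reads in Eed-/- astrocytes. Of the retinoic acid pathway, the receptor gene Rarb had 0 reads in Eed+/+ libraries of both gates, 7 in Eed-/- neurons and 10 in Eed-/- astrocytes, while the enzyme gene Aldh1a2 had 12 reads in Eed-/- neurons, 1 in Eed-/- and 13 in Eed+/+ astrocytes. Egr2, which acts upstream of Hoxb2 in the hindbrain, was read in Eed+/+ and Eed-/- neurons alike, at 60.6 ± 34.4 and 70.4 ± 43.8 CPM. Of the 11 regulators, 3 were tested in astrocytes and 4 in neurons, 0 were called in either and 0 had an unadjusted p under 0.05 (edgeR quasi-likelihood test). Without the filter 9 were tested in each gate and 0 were called, with 3 (Cdx1, Rarb and Cyp26b1, all higher in Eed-/-) at an unadjusted p under 0.05 in astrocytes and 0 in neurons. Each of the 3 rested on 1 Eed-/- astrocyte library, Cdx1 on replicate 1 (12 reads), Cyp26b1 on replicate 3 (9 reads) and Rarb on replicate 5 (10 reads), without which no astrocyte library held a read of it. Replicates 1 and 3 lay outside the alignment limits and held no HoxB read.

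En1, En2, Pax2 and Hoxa2, from a list of 7 genes that mark neural tissue behind the cortex, had more reads in Eed-/- than in Eed+/+ neurons. En1, En2 and Pax2, which mark the midbrain and hindbrain border, had 96, 25 and 22 reads in Eed-/- neurons and 0, 0 and 1 in Eed+/+ neurons. Hoxa2, used in the hindbrain, had 27 and 0. In Eed-/- astrocyte replicate 5 the reads were 7 for En1, 2 for Pax2, 6 for Hoxa2 and 0 for En2, and in replicate 2, with 126 HoxB reads, all 4 were at 0. Summed over the list, the level ran from 123 to 193 CPM in Eed-/- neurons and from 71.1 to 148 CPM in Eed+/+ neurons. The part of cells from outside the cortex in the result was not tested.

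Outside the Hox clusters, 13300 genes with at least 50 reads were ranked by how well their log2(TMM-scaled CPM + 1) followed that of the summed HoxB level over the 15 libraries. The most alike were Slc30a3, a zinc transporter gene (Pearson r = 0.895), Cnpy1 (0.892), Eda2r, a receptor of the TNF receptor family (0.892), Gpr4, a proton-sensing receptor (0.860), and Cdkn2b, an inhibitor of cyclin-dependent kinases (0.838). These coefficients are a description. The 15 libraries share their depth and quality across genes, and the points fall into libraries with HoxB reads and libraries without. Slc30a3 had 25, 36 and 28 reads in Eed-/- neuron replicates 1 to 3, 25 in each of Eed-/- astrocyte replicates 2 and 5, 5 in Eed+/+ astrocyte replicate 2 and 0 elsewhere. Cnpy1 had 55, 24 and 28 reads in the same neuron libraries, 8 in each of Eed-/- astrocyte replicates 2 and 5, and 0 in all others. Cdkn2b had 22, 30 and 21 reads in the same neuron libraries and 13 and 16 in Eed-/- astrocyte replicates 2 and 5. It also had 22 in the library labelled Eed+/+ astrocyte replicate 3 and 1 in Eed+/+ astrocyte replicate 2. Its mean in astrocytes thus went the other way, at 8.26 CPM in Eed+/+ and 4.94 CPM in Eed-/-.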

How the data were processed

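Smart-Seq v2 libraries were prepared from sorted cells of 16 samples. The authors aligned reads with STAR to mm10 (GRCm38, per the labels) and deposited raw, uniquely aligned read counts for each gene in an unstranded column and 2 stranded columns, not normalized and not pooled. The unstranded column was used, because between 45.2% and 52.7% of stranded reads fell on the first strand. Summary lines naming no gene (reads outside genes were 8.55% to 71.6% of uniquely aligned reads, ambiguous reads 0.934% to 5.66%) were left out of library sizes and tests. The sources used here do not state the annotation release. Symbols, coordinates and exon lengths were taken from GENCODE mouse release 21 (53274 identifiers matched, 105 did not), and promoters from RefSeq.

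Counts were tested with edgeR 4.0.16 in R 4.3.3 (TMM, filterByExpr, robust quasi-likelihood, two-sided, Benjamini-Hochberg over all genes tested, threshold 0.05) within each gate, and over 15 libraries for the interaction and the comparison of Eed-/- groups. DESeq2 1.42.0 and limma 3.58.1 were alternatives. The script was tested on simulated counts. Levels are TMM-scaled CPM, mean ± SD over libraries. Folds against a group at 0 used a floor of 3 counts over the group. These floors, and the exact 95% intervals, cover only counting error, because no molecular identifiers were used and reads are not independent molecules. The files held 0 columns without a sample. The library titled as an astrocyte and labelled neuro entered no comparison. The study set some libraries aside without naming them here, so all 15 were kept and the alignment limits were an alternative.

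The 10 members and all gene lists were chosen with earlier results of these data known. Besides the members, the named genes are neighbours (4 coding genes each side), other genes inside the cluster with at least 10 reads, antisense genes overlapping a member, paralogs, fixed lists of cofactors, regulators and markers, Eed, and the 5 most alike genes with at least 50 reads. The antisense and miRNA genes with fewer reads, and Hoxb3os in particular, were named after their values were seen. Some genes of these lists and some sequences are not reported here.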

Additional observations from a re-analysis of the deposited data

Results flagged for a closer look

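In groups of 5 libraries, 14 sets of HoxB levels were compared with Dixon's 95% critical value of 0.71 for the gap between the extreme library and its nearest neighbour, divided by the range. Of these, 10 exceeded it, where chance gives about 1 in 20. With most libraries at 0, a single library with reads is enough to give a ratio of 1. In Eed-/- astrocytes the ratio was 1 for Hoxb13, Hoxb9 and Hoxb5 (replicate 5 highest, with 24, 5 and 8 reads), for Hoxb7 (replicate 2 highest, 23 reads) and for Hoxb2 (replicate 4 highest, 4 reads in a library outside the alignment limits). Hoxb4 had a ratio of 0.746, with replicate 2 highest at 6 reads. In Eed+/+ astrocytes the ratio was 1 for Hoxb8 (replicate 1, 1 read), Hoxb7 (replicate 3, 4 reads) and Hoxb1 (replicate 4, 2 reads). The summed HoxB level of Eed+/+ astrocytes had a ratio of 0.877, with the library labelled replicate 3, outside the alignment limits, highest at 7.44 CPM.

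The stranded columns, which the comparisons did not use, held reads over a HoxB gene and an antisense gene that the unstranded column set aside, and counted them for both. In Eed-/- neurons they added 27 reads to Hoxb3, 25 to Hoxb2 and 6 to Hoxb5, and in Eed-/- astrocytes 14 to Hoxb3. In the Eed+/+ libraries of both gates they added 0 to each. These reads could come from either strand, and the antisense genes over these HoxB genes gained as many in sum in every library.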

How the results depend on the processing

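No HoxB gene was called in astrocytes, in the interaction or between the Eed-/- groups under any alternative run, though with the filter few or no members could be tested in astrocytes. In the interaction, members with no Eed+/+ read in either gate have no defined contrast. In neurons 1 gene, Hoxb13, was called in place of 0 with no filter (127 of 23689 genes called) and with DESeq2 (26 of 11862). In settings chosen after seeing the data, it was also called with no filter together with the stranded columns, DESeq2 or RLE size factors. Those fits called 120 of 24826, 54 of 23689 and 201 of 23689 genes, in that order. With no filter and the alignment limits, its log2 fold change was 9.37. With the filter, leaving out 1 library gave 0 or 1 called gene in neurons, and the 1 was Hoxb13 without Eed+/+ replicate 1 or without Eed-/- replicate 1, in fits that called 2601 of 12635 and 15 of 11520 genes. Without the filter the Hoxb13 call was lost without Eed-/- replicate 1, without Eed-/- replicate 2, and with all 15 libraries in 1 fit. Its log2 fold change in these fits was 9.11, 8.66 and 9.08, in that order, against 9.13 with no filter alone. The alignment limits leave 1 Eed+/+ neuron library, the same fit as without Eed+/+ replicate 2. The cause of these changes was not tested.

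The summed HoxB difference in astrocytes moved from 37.7 to 92.1 CPM within the alignment limits, which leave out the 3 Eed-/- libraries at 12.7 CPM or less. It ran from 22.2 CPM (without Eed-/- replicate 5) to 47.6 CPM (without Eed-/- replicate 1 or 3) as single libraries were left out, and in neurons from 86.6 to 114 CPM. The Hoxb7 difference in astrocytes reversed to -1.49 CPM without Eed-/- replicate 2, which held all its reads in that group, and moved to 3.04 CPM without the library labelled Eed+/+ replicate 3, which held all its reads in the other.

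The labels do not say what replicate numbers share. Correlations of same-numbered deviations ran from -0.0417 to 0.171 between genotypes in astrocytes, and between gates from -0.00479 to 0.127 in Eed-/- libraries and from -0.0493 to -0.00957 in Eed+/+ libraries, so that the numbers were not taken to pair the samples. In neurons they were 0.102 and -0.259, which say little because the deviations of 2 Eed+/+ libraries mirror each other. With a replicate block, 0 HoxB genes were called of 4 tested in neurons and of 5 each in the interaction and between the Eed-/- groups, while in astrocytes 0 passed the filter and none could be called. With the block the adjusted p of Hoxb13 in neurons was 0.293 (edgeR quasi-likelihood test). The Eed+/+ neuron group of 2 libraries, 1 of them with 31.0% unique alignment, and libraries in which 3 counts stand for up to 14.2 CPM limit what could be detected.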

Other observations

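The library without a group, labelled Eed-/- but with both cell types named, held 1 HoxB read, of Hoxb2, at a depth where 3 counts stand for 13.5 CPM. It held 125 HoxA reads, all of 1 gene, 1 HoxC read and 0 HoxD reads. Its summed astrocyte markers stood at 33948 CPM and its neuron markers at 9.03 CPM.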
